A study of Mus musculus with 14 samples.

Results

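Interferon-stimulated genes are the genes that a cell switches on when interferon binds its receptors. The 39 genes described here are a list of symbols, drawn up with earlier results of these data known: 10 of the type I type (the Ifit, Mx and Oas families), 8 of the gamma type (the guanylate-binding proteins of the Gbp family and the immunity-related GTPases Igtp, Irgm1 and Irgm2), 12 genes of the Isg15 system and other effectors, 5 sensors of foreign or misplaced nucleic acid, and 4 transcription factors. Of the 39, 38 matched 1 of the 38553 Ensembl gene identifiers in each file. Gbp6 matched none and is not analysed here. All 38 reached 0.5 FPKM in at least 3 of the 12 white fat libraries and so entered the tests. FPKM counts sequenced fragments corrected for transcript length and for the size of the library. Oas3 passed that minimum through 1 group, since only 2 libraries outside the inguinal normal-diet group reached 0.5 FPKM. Its differences from that group are therefore given as values with no test. The main counts that hold it are also given without it or marked as holding it.

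The libraries were poly(A) RNA of adipocytes from male mice on the C57BL/6 background, with no genetic change stated. The mice ate regular chow (here the normal diet) or a high-fat diet for 16 weeks, starting when they were weaned at 3 weeks of age. Adipocytes came from the epididymal pad (visceral white fat), the inguinal pad (subcutaneous white fat) and the interscapular brown pad, as the layer that floats after collagenase digestion, for 20 min in white fat and 40 min in brown fat. That layer was not sorted further, so cells that cling to adipocytes can be in it. Each white group had 3 libraries, numbered 0, 1 and 2 and always given in that order here, and brown fat had 1 library per diet, all from pooled tissue of 3 to 5 mice. The series calls the white libraries biological triplicates.

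Type I interferons (alpha and beta) bind the Ifnar receptor and, through the kinases Jak1 and Tyk2, activate a complex with Stat2 and Irf9 that binds the interferon-stimulated response element, ISRE. Interferon gamma, made mainly by T and NK cells, binds the Ifngr receptor, acts through the gamma-activated site, GAS, and induces Irf1. Ifit, Mx and Oas proteins block viral RNA and translation and are the classic type I set, whereas Gbp and Irg GTPases attack the vacuoles of intracellular microbes and respond most strongly to gamma, although many genes answer to both. In obese fat, interferon signalling has been studied for its part in inflammation, alongside the macrophages that gather there.

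Some of the promoters hold these response elements, and 9 are printed below to show how they are arranged, Ifit1 and Gbp2 among them, which passed in no comparison. RefSeq (GRCm38.p6) gave the window from 250 bases before to 50 after the start site for 28 of the 39 members. The ISRE core was searched on both strands as GAAA, any 2 bases and GAAA again, and the GAS as TTCNNNGAA, which reads the same on both strands. An ISRE core lay in 18 of the 28 windows (64.3%), against 3.99% of the 27025 windows of all genes. A GAS lay in 10 of the 28 (35.7%), against 9.55% of all. Among gamma type genes 6 of 6 windows held an ISRE core and 3 a GAS, and among type I type genes 4 of 7 held an ISRE core and 2 a GAS. Of the effectors 4 of 8 held an ISRE core and 3 a GAS, and of the sensors 3 of 3 and 1. Of the 4 transcription factors only Stat2 held an ISRE core and only Irf1 a GAS, so that Irf7 and Irf9 held neither in these windows. Each line below gives the 130 bases before the start site, 5′ to 3′ on the gene's own strand, with every match in capitals, and overlapping matches run together.
Ifit1: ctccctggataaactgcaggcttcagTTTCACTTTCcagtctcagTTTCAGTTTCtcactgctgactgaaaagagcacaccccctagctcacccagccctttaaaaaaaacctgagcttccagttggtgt
Isg15: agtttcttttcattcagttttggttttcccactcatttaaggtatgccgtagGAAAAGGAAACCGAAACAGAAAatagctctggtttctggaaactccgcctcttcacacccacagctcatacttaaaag
Oas1a: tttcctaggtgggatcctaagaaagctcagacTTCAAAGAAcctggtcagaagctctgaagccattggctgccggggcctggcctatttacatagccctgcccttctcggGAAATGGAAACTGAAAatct
Igtp: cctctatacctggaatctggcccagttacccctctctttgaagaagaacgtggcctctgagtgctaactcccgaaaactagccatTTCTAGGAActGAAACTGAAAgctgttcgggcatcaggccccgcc
Irgm2: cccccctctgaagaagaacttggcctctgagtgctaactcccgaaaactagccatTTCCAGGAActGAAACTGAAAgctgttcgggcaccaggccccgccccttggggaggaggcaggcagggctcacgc
Irgm1: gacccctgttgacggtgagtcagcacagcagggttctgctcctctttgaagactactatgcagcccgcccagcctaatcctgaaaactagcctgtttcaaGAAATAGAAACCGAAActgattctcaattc
Gbp7: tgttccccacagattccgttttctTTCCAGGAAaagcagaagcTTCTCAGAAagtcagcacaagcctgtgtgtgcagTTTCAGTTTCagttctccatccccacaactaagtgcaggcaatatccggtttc
Gbp2: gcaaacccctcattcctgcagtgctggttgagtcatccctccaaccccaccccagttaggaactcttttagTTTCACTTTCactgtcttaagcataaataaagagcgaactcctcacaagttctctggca
Irf1: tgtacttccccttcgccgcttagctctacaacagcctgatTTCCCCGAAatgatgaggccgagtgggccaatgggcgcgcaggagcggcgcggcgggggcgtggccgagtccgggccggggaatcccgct
The windows are chr19:34640759-34640888 for Ifit1, chr11:58199426-58199555 for Igtp, chr11:58214847-58214976 for Irgm2, chr3:142530206-142530335 for Gbp7, chr3:142620533-142620662 for Gbp2 and chr11:53769884-53770013 for Irf1, on the plus strand, and chr4:156200819-156200948 for Isg15, chr5:120907526-120907655 for Oas1a and chr11:48871421-48871550 for Irgm1, on the minus strand. Ifit1, a type I type gene, held 2 ISRE cores and no GAS in these bases, and Isg15 held 3 overlapping ISRE cores. Igtp and Irgm2, neighbours on chromosome 11, each held a GAS followed, after 2 bases, by an ISRE core. Irf1 held a GAS and no ISRE core. Matches to letters are a description and show no binding.

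All libraries carried the 6 adipocyte markers (none at 0), with summed levels of 9565 to 27590 FPKM in white fat. They also carried markers of other cells, whose part in the results below was not tested. The 15 lymphocyte markers summed to 812, 110 and 1362 FPKM in the 3 inguinal normal-diet libraries and to 3.40 to 24.7 FPKM in the other 11. The 12 macrophage markers summed to 1301 to 2316 FPKM in the epididymal high-fat group, 491 to 977 in the epididymal normal-diet group and 213 to 569 in the inguinal groups. The 11 endothelial markers summed to 64.6 to 122 FPKM in the epididymal high-fat group and to 360 to 856 in the other white libraries. Mitochondrial messages took 20.6% to 66.7% of protein-coding FPKM in white fat, with 52.1%, 20.6% and 60.7% in the inguinal normal-diet libraries. Because FPKM shares 1 total, a large mitochondrial share lowers every other gene, and results are therefore also given with libraries scaled to a common total without those genes where that changes them. In whole RNA of mixed cells, fewer cells of a type and less RNA per cell cannot be told apart.

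Levels of the 38 genes spanned from about 1 to over 100 FPKM. Ifitm3, which blocks viral entry at membranes, had the highest mean over the 12 white libraries (135.7 FPKM), followed by Bst2 (tetherin, 55.9), Gbp2 (27.7), Irf1 (27.3), Parp9 (24.95) and Irf7 (22.4). Mx1 (1.42), Oas3 (1.06) and Mx2 (0.977) were the lowest. C57BL/6 mice are known to carry a defective Mx1 allele. One group stood apart, the inguinal adipocytes of normal-diet mice. There 35 of the 38 genes (92.1%), Oas3 among them, had their highest group mean, against 31.7% of all genes tested. The exceptions were Gbp2, highest in the epididymal high-fat group, Parp9, highest in the inguinal high-fat group, and Ifih1, highest in the epididymal normal-diet group. At the other end, 27 of the 38 (71.1%) were lowest in the epididymal high-fat group, against 27.0% of all genes. With libraries scaled to a common total without mitochondrial genes, 36 were highest in the inguinal normal-diet group and 30 lowest in the epididymal high-fat group. Within the inguinal normal-diet group the libraries were not alike. Library 1 held the highest single value of 22 genes and library 2 that of 14, Oas3 among the latter.

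**Figure D1:**
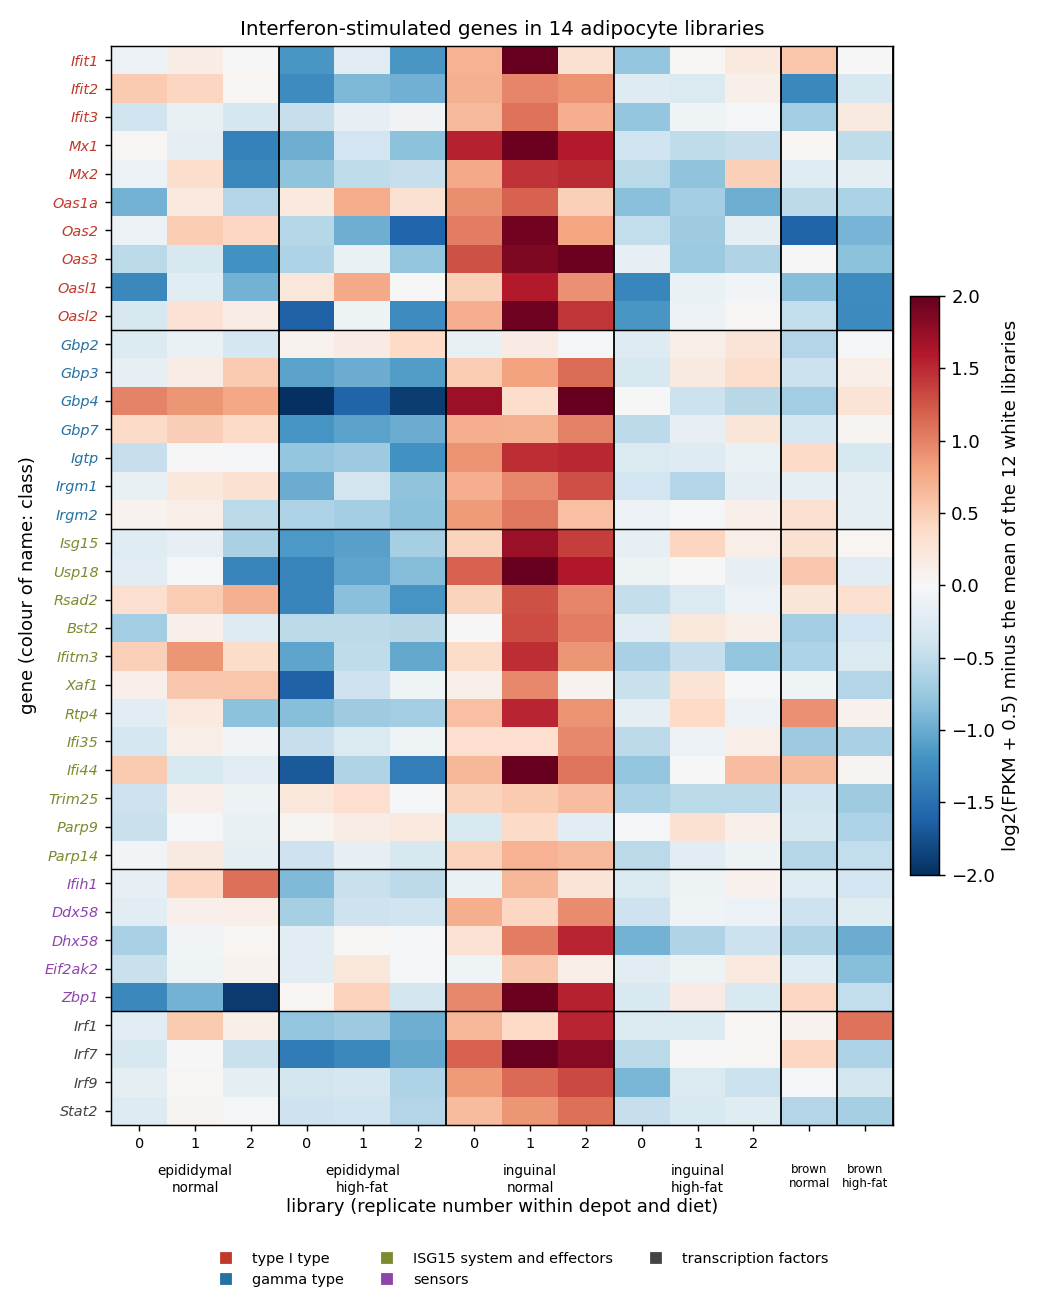
Colour shows log2(FPKM + 0.5) of each of the 38 genes minus its mean over the 12 white libraries, for all 14 libraries (columns, by depot and diet), with genes grouped and coloured by class and values past 2 drawn in the end colours. The 3 inguinal normal-diet columns are mostly red, and 35 of the 38 genes, Oas3 among them, have their highest group mean there. In the epididymal high-fat columns 27 have their lowest.

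In inguinal adipocytes the high-fat diet went with lower levels of most of these genes. Of the 38, 29 fell and 0 rose (limma, adjusted p under 0.05; 28 of 37 fell without Oas3), where 10.2% of the 14959 genes tested fell and 9.3% rose. The median log2 difference, high-fat minus normal, was -1.20 over the 38 and -0.01 over all genes. The 2 diet groups did not overlap for 32 of the 38, Oas3 among them, against 33.1% of all genes. By class, 9 of 10 type I type genes fell (median -1.60; 8 of 9 without Oas3), 5 of 7 gamma type genes (median -0.97), 8 of 12 effectors, 3 of 5 sensors and 4 of 4 transcription factors. Log2 differences are of log2(FPKM + 0.5), which understates the changes of genes near 0.5 FPKM, such as Mx1, Mx2 and Oas3.

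All 4 transcription factors fell in inguinal adipocytes. Irf7, the factor that amplifies type I interferon production, read 37.9, 66.2 and 59.1 FPKM on the normal diet and 11.1, 16.4 and 16.6 on the high-fat diet, a log2 difference of -1.84 (SE 0.24, adjusted p = 0.00065). Irf9, the DNA-binding partner of Stat2, read 18.8, 23.1 and 26.2 FPKM against 5.19, 8.31 and 7.43, a log2 difference of -1.64 (SE 0.20, adjusted p = 0.00047). For Stat2, which only the type I and type III receptors engage, levels of 11.8, 14.2 and 16.6 FPKM stood against 5.25, 5.95 and 6.26, a log2 difference of -1.21 (SE 0.18, adjusted p = 0.0014). In each of these the lowest normal-diet library lay above the highest high-fat library. Irf1, the gamma-induced factor, went from 38.5, 31.9 and 70.1 FPKM to 19.7, 19.9 and 24.9, a log2 difference of -1.03 (SE 0.27, adjusted p = 0.022). Its order within the normal-diet group was another one: library 2 was highest for Irf1 and library 1 for Irf7.

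The type I type genes fell almost without exception. Mx1, a GTPase against influenza-type viruses, was at 3.65, 5.09 and 3.81 FPKM on the normal diet and 0.586, 0.5101 and 0.538 on the high-fat diet, a log2 difference of -2.15 (SE 0.35, adjusted p = 0.0021). Its relative Mx2 was at 1.56, 2.83 and 2.95 FPKM against 0.342, 0.199 and 1.21, a log2 difference of -1.52 (SE 0.45, adjusted p = 0.035). Both were at the low end of what was measured, and neither overlapped between diets. The Oas enzymes make the 2′-5′ oligoadenylates that switch on RNase L. Oas1a read 4.66, 5.62 and 3.25 FPKM against 1.02, 1.19 and 0.878, a log2 difference of -1.69 (SE 0.31, adjusted p = 0.0041). Oas2 went from 5.39, 10.6 and 4.51 FPKM to 1.58, 1.28 and 2.07, a log2 difference of -1.70 (SE 0.35, adjusted p = 0.0068). For Oas3 the values were 2.31, 3.75 and 4.01 FPKM against 0.532, 0.195 and 0.2604, a log2 difference of -2.21. None of the 3 overlapped between diets, and the high-fat values of Oas3 were low, at or under 0.532 FPKM. Oasl1, a member of the family without that enzyme activity, read 3.79, 8.78 and 5.29 FPKM against 0.744, 2.304 and 2.46, a log2 difference of -1.49 (SE 0.41, adjusted p = 0.026). Oasl2 read 10.9, 26.1 and 18.1 FPKM against 2.57, 5.89 and 6.55, a log2 difference of -1.79 (SE 0.44, adjusted p = 0.015). Library 1 of the normal diet held the top value for both.

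The Ifit proteins, which bind foreign RNA ends, sit in 1 cluster on chromosome 19. Ifit2 read 6.02, 7.302 and 6.902 FPKM on the normal diet and 2.82, 2.77 and 3.76 on the high-fat diet, a log2 difference of -1.01 (SE 0.22, adjusted p = 0.0083). Ifit3 read 12.5, 17.2 and 13.3 FPKM against 4.38, 7.36 and 7.63, a log2 difference of -1.12 (SE 0.23, adjusted p = 0.0066). Ifit1 was the 1 type I type gene that did not pass, with 4.91, 14.1 and 3.63 FPKM against 1.46, 2.92 and 3.33 and a log2 difference of -1.22 (SE 0.44, adjusted p = 0.075). Its diet groups did not overlap, and library 1 of the normal diet stood far above the other 2. Near-identical copies can share reads within these families (Ifit3 with Ifit3b, Oas1a with Oas1g, and the Gbp genes among themselves), and how the authors' counting split them is not given in the sources used here.

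Of the gamma type genes, Gbp4, Igtp and Irgm1 fell most. Igtp (Irgm3) read 14.8, 22.4 and 23.01 FPKM on the normal diet and 6.24, 6.38 and 6.995 on the high-fat diet, a log2 difference of -1.52 (SE 0.22, adjusted p = 0.0013). Irgm1, a regulator of the other Irg proteins and of autophagy, read 20.1, 23.5 and 29.9 FPKM against 8.97, 7.73 and 10.3, a log2 difference of -1.38 (SE 0.22, adjusted p = 0.002). Irgm2 read 17.9, 20.7 and 14.9 FPKM against 8.89, 9.45 and 10.4, a log2 difference of -0.85 (SE 0.21, adjusted p = 0.015). Every normal-diet value of the 3 lay above every high-fat value. Gbp4 read 15.5, 5.75 and 21.2 FPKM against 4.41, 3.15 and 2.83, a log2 difference of -1.73 (SE 0.39, adjusted p = 0.01). Gbp7 read 11.4, 11.3 and 14.1 FPKM against 4.51, 5.91 and 7.997, a log2 difference of -0.97 (SE 0.21, adjusted p = 0.0081). Gbp4 was lowest in library 1, the normal-diet library with the fewest lymphocyte markers, and still above every high-fat library there. The part of lymphocytes in its level was not tested. Gbp3 did not pass, at 13.5, 16.8 and 20.9 FPKM against 7.45, 10.7 and 12.1 and a log2 difference of -0.73 (SE 0.24), adjusted p = 0.0501. Gbp2, the most abundant of the family, was at 24.5, 30.7 and 26.9 FPKM against 22.9, 29.6 and 32.95, with a log2 difference of 0.05 (SE 0.17, adjusted p = 0.88) and overlapping groups.

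Among the effectors, 8 of 12 fell. Isg15, the ubiquitin-like protein that is attached to other proteins, read 12.1, 30.2 and 23.5 FPKM on the normal diet and 7.73, 11.9 and 9.64 on the high-fat diet, a log2 difference of -1.06 (SE 0.31, adjusted p = 0.032). Usp18, which removes Isg15 and dampens the type I receptor, read 7.12, 16.1 and 9.71 FPKM against 2.64, 2.84 and 2.504, a log2 difference of -1.78 (SE 0.36, adjusted p = 0.0058). Ifitm3 read 149, 322 and 214 FPKM against 73.4, 83.9 and 67.2, a log2 difference of -1.54 (SE 0.27, adjusted p = 0.003). Normal-diet and high-fat values were apart for each, and library 1 was highest for each. Rsad2 (viperin, an antiviral radical enzyme that sits on lipid droplets and membranes) read 6.84, 12.5 and 10.1 FPKM against 3.37, 3.93 and 4.45, a log2 difference of -1.19 (SE 0.24, adjusted p = 0.0064). Trim25, the ubiquitin ligase that acts with the sensor RIG-I, read 17.1, 18.01 and 19.3 FPKM against 7.84, 8.42 and 8.55, a log2 difference of -1.09 (SE 0.18, adjusted p = 0.002). Library 2 of the normal diet was highest for Trim25, and the diets did not overlap. Rtp4 read 11.6, 22.4 and 14.3 FPKM against 6.43, 9.98 and 6.84, a log2 difference of -0.98 (SE 0.30, adjusted p = 0.038). Parp14, an ADP-ribosyltransferase, read 12.9, 15.3 and 14.8 FPKM against 6.25, 7.94 and 8.56, a log2 difference of -0.89 (SE 0.18, adjusted p = 0.0063). Ifi35 read 22.9, 22.9 and 35.4 FPKM against 12.4, 16.5 and 19.8, a log2 difference of -0.72 (SE 0.23, adjusted p = 0.049). Bst2, Xaf1, Ifi44 and Parp9 did not pass. Bst2 read 51.1, 126 and 103 FPKM against 43.7, 59.2 and 54.8, and its adjusted p was 0.1. The other 3 had log2 differences from -1.32 to 0.17.

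Of the sensors, Zbp1, Dhx58 and Ddx58 fell. Zbp1, which recognises Z-form nucleic acid and triggers necroptosis, read 13.2, 26.6 and 19.9 FPKM on the normal diet and 5.16, 7.36 and 5.14 on the high-fat diet, a log2 difference of -1.64 (SE 0.32, adjusted p = 0.0055). Dhx58 (LGP2) read 5.22, 9.02 and 12.97 FPKM against 1.94, 2.57 and 2.99, a log2 difference of -1.60 (SE 0.31, adjusted p = 0.0047). Ddx58 (RIG-I) read 18.6, 14.8 and 21.7 FPKM against 8.08, 10.4 and 10.1, a log2 difference of -0.90 (SE 0.19, adjusted p = 0.0081). These 3 had no overlap between diets. Ifih1 (MDA5) and Eif2ak2 (the kinase PKR) did not pass, with log2 differences of -0.37 and -0.23.

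**Figure D2:**
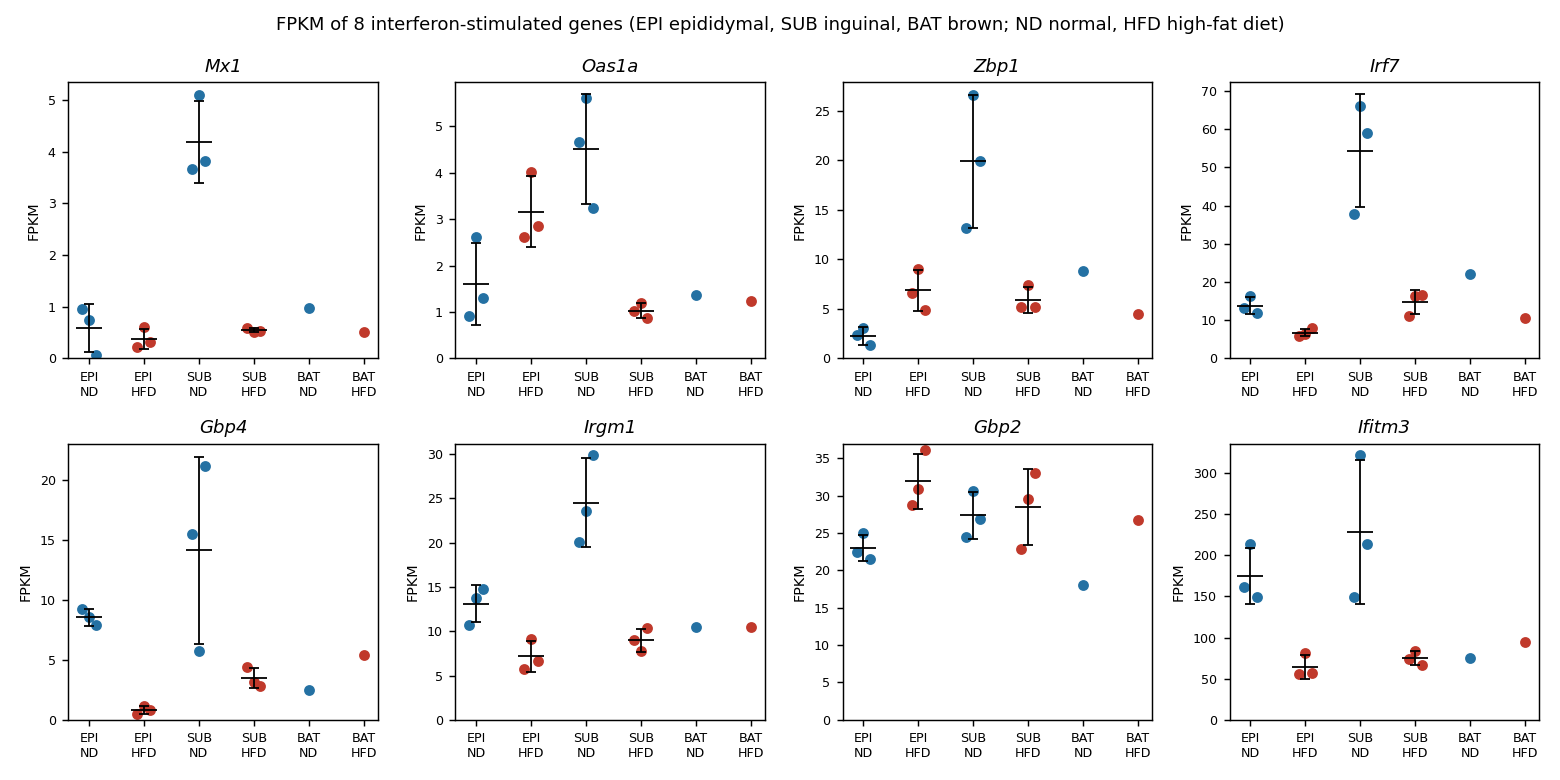
Each panel plots FPKM of 1 gene by depot and diet, 1 point per library, with the mean and SD (n = 3) for white groups; blue is the normal diet and red the high-fat diet. Mx1, Oas1a, Zbp1, Irf7, Irgm1 and Ifitm3 are highest in the inguinal normal-diet group, Gbp4 is lowest in the epididymal high-fat group, and Gbp2 is the 1 gene of the 8 whose 4 white group means lie between 23.0 and 31.9.

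Beside these genes, all 15 lymphocyte markers fell in inguinal adipocytes on the high-fat diet (median log2 difference -4.19). So did 5 of 6 NK cell markers and 6 of 8 fibroblast and progenitor markers, while 1 of 12 macrophage markers rose. The inguinal normal-diet library with the fewest lymphocyte markers, library 1, still had all 15 above 0. An alternative chosen after seeing the data reduced the normal-diet group to that library, assuming that it varies like the other groups. That library held the highest single value of 22 of the 38 genes, so lower high-fat values were partly built in. Its lymphocyte markers (110 FPKM) were still above those of the inguinal high-fat libraries (9.40 to 19.6 FPKM), and the part of those cells was not tested. With 1 library, only sizes are given. The median log2 difference was -2.20 for type I type genes (-1.60 with all libraries) and -0.86 for gamma type genes (-0.97). Single differences were -0.68 for Gbp4, -0.57 for Irf1, -0.62 for Ddx58, -0.51 for Ifi35 and -0.86 for Gbp7. They were -1.12 for Ifit2, -1.73 for Mx2, -2.09 for Oasl1, -2.30 for Ifit1 and -1.27 for Bst2. For Gbp4 and Irf1 the difference with all libraries was larger (-1.73 and -1.03). Library 1 also had the lowest mitochondrial share. With libraries scaled to a common total without mitochondrial genes it kept the highest type I type level of the 14 libraries, as on the deposited scale. When only the 2 inguinal groups were fitted, with the spread of these 6 libraries alone, 12 genes fell, all of them among the 29. Over all genes that fit called 713 in either direction, against 2914 in the fit of all 4 groups. Of the 29, 21 kept their call whichever of the 6 libraries was left out, Oas3 among them.

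In the wider pathway few interferon messages were measured, and several upstream genes fell with the diet. Ifna1, Ifna2, Ifna4, Ifnb1, Ifne, Ifnz, Ifnl2 and Ifnl3 were listed at 0 in all 14 libraries. Ifng was above 0 in 7, at no more than 0.648 FPKM. Il18, a cytokine that promotes gamma production, was the 1 of 2 ligands tested that fell in inguinal adipocytes (log2 difference -1.81, SE 0.39, adjusted p = 0.0087). Among receptor and signalling genes the kinase gene Jak2 (-0.60) fell, while the receptor genes Ifnar1, Ifnar2, Ifngr1 and Ifngr2 did not pass. Of 6 other Irf genes, Irf4 (-2.35), which is also a B cell and adipocyte factor, and Irf2 (-0.99) fell. Nucleic acid sensing genes fell in 6 of 12, led by the endosomal DNA receptor Tlr9 (-2.15), the kinase Ikbke (-1.65) and Tmem173 (STING, -1.63). Among 6 brakes, the phosphatase genes Ptpn6 (-3.26) and Ptpn2 (-0.89) and Pias1 (-0.93) fell. Of 51 other interferon-induced genes 30 fell, led by the Irg GTPase genes Tgtp1 (-2.65) and Tgtp2 (-2.64) and by Ifi205 (-2.51). The 1 that rose was Ubd (FAT10, a ubiquitin-like modifier), from 6.65, 10.7 and 8.77 FPKM to 88.3, 122 and 88.8, a log2 difference of 3.45 (SE 0.23, adjusted p = 8.6e-06). Tlr9, Irf4 and Ptpn6 are also abundant in B cells or other leukocytes, whose markers moved the same way.

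In epididymal adipocytes the high-fat diet went with lower levels of most gamma type genes, while most type I type genes did not pass. Of the 38, 12 fell and 1, Zbp1, rose, where 7.35% of all genes tested fell and 12.2% rose. The median log2 difference was -0.54 over the 38 and 0.07 over all genes. Groups did not overlap for 25 of the 38, against 42.4% of all genes. Among gamma type genes 5 of 7 fell (median -0.84), and among type I type genes 2 of 10 (median -0.23). Such counts also depend on precision: Oasl2 (-1.03, SE 0.44) did not pass, while Igtp (-0.74, SE 0.22) did. Group means of Mx1, Mx2 and Oas3 were at most 0.587 FPKM on either diet here, which left little room to fall. Further, 2 of 12 effectors, 1 of 5 sensors and 2 of 4 transcription factors fell.

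Both Irf1 and Irf7 fell. Irf1 read 20.7, 34.9 and 26.3 FPKM on the normal diet and 13.7, 14.4 and 11.99 on the high-fat diet, a log2 difference of -0.98 (SE 0.27, adjusted p = 0.026). Irf7 read 13.1, 16.4 and 11.96 FPKM against 5.94, 6.42 and 7.85, a log2 difference of -0.98 (SE 0.24, adjusted p = 0.013). Their diet groups were apart. Irf9 and Stat2 did not pass, with log2 differences of -0.33 and -0.38 (adjusted p = 0.31 and 0.17), though neither overlapped between diets. Stat2 read 6.16, 7.77 and 7.29 FPKM against 5.49, 5.57 and 4.8.

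Gbp4 had the largest difference of the 38. Its level was 9.28, 8.55 and 7.87 FPKM on the normal diet and 0.4598, 1.11 and 0.816 on the high-fat diet, a log2 difference of -2.84 (SE 0.39, adjusted p = 0.00036). Gbp7 read 8.88, 9.58 and 8.92 FPKM against 2.68, 2.92 and 3.11, a log2 difference of -1.50 (SE 0.21, adjusted p = 0.00038). Gbp3 read 8.35, 10.4 and 13.8 FPKM against 4.22, 4.49 and 4.05, a log2 difference of -1.23 (SE 0.24, adjusted p = 0.0036). All 3 had every normal-diet value above every high-fat value. Irgm1 read 10.7, 13.8 and 14.7 FPKM against 5.704, 9.15 and 6.62, a log2 difference of -0.84 (SE 0.22, adjusted p = 0.02). Igtp read 5.48, 7.73 and 7.63 FPKM against 4.32, 4.46 and 3.06, a log2 difference of -0.74 (SE 0.22, adjusted p = 0.036). Irgm2 did not pass (-0.59, SE 0.21, adjusted p = 0.07). Gbp2 pointed the other way without passing, at 22.5, 24.9 and 21.5 FPKM against 28.8, 30.8 and 36.03 and a log2 difference of 0.46 (SE 0.17, adjusted p = 0.088). All high-fat libraries of Gbp2 lay above all its normal-diet libraries.

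Ifit2 and Oas2 were the type I type genes that fell. Ifit2 read 5.24, 4.83 and 3.603 FPKM on the normal diet and 1.16, 1.63 and 1.54 on the high-fat diet, a log2 difference of -1.38 (SE 0.22, adjusted p = 0.00091). Oas2 read 2.19, 3.64 and 3.37 FPKM against 1.46, 0.978 and 0.466, a log2 difference of -1.31 (SE 0.35, adjusted p = 0.021). Each had all normal-diet libraries above all high-fat libraries. Oas1a and Oasl1 had higher high-fat values that did not pass. Oas1a read 0.908, 2.61 and 1.302 FPKM against 2.61, 4.03 and 2.85, a log2 difference of 0.86 (SE 0.31, adjusted p = 0.076). Oasl1 read 0.763, 2.16 and 1.11 FPKM against 3.13, 4.69 and 2.58, a log2 difference of 1.14 (SE 0.41, adjusted p = 0.076). For both, every high-fat library lay above every normal-diet library, though for Oas1a the closest pair was 2.613 against 2.608 FPKM. Oas3 was at most 0.554 FPKM in these 6 libraries. Ifit1 read 2.59, 3.197 and 2.82 FPKM against 0.9896, 2.35 and 0.997 and did not pass (-0.86, SE 0.44, adjusted p = 0.21). Mx1 read 0.953, 0.747 and 0.0625 FPKM against 0.226, 0.599 and 0.307, overlapping between diets. Ifit3 (0.06), Mx2 (-0.24), Oas3 (0.18) and Oasl2 (-1.03) did not pass either.

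Of the effectors, Ifitm3 and Rsad2 fell. Ifitm3 read 162, 214 and 149.8 FPKM on the normal diet and 55.2, 81.5 and 56.5 on the high-fat diet, a log2 difference of -1.44 (SE 0.27, adjusted p = 0.0028). Rsad2 read 6.21, 7.15 and 8.34 FPKM against 1.65, 2.51 and 1.89, a log2 difference of -1.62 (SE 0.24, adjusted p = 0.00067). The high-fat values were below the normal-diet values throughout. Isg15 read 7.296, 7.74 and 5.42 FPKM against 3.69, 3.88 and 5.33 and did not pass (-0.61, SE 0.31, adjusted p = 0.2). Bst2 read 31.1, 54.3 and 42.3 FPKM against 34.6, 34.97 and 34.4, with 1 normal-diet library below all high-fat libraries. The other 8 effectors ran from -1.23 (Ifi44) to 0.34 (Parp9) on the log2 scale.

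Sensors moved both ways. Zbp1 rose from 2.37, 3.11 and 1.35 FPKM to 6.65, 9.07 and 4.91, a log2 difference of 1.42 (SE 0.32, adjusted p = 0.0088). Ifih1 fell from 7.8, 11.8 and 19.5 FPKM to 4.56, 6.31 and 5.97, a log2 difference of -1.07 (SE 0.31, adjusted p = 0.028). Neither overlapped between diets, and the normal-diet values of Ifih1 were widely spread. Ddx58, Dhx58 and Eif2ak2 did not pass, with log2 differences of -0.50, 0.15 and 0.15.

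Beside this, all 11 endothelial markers fell with the diet in this depot (median log2 difference -2.71), 5 of 8 fibroblast and progenitor markers fell and 6 of 12 macrophage markers rose (median 1.44). Lymphocyte markers did not pass in either direction. Of the 13 calls, 7 held whichever of the 6 libraries was left out; without epididymal normal-diet library 1 or without high-fat library 0, 8 genes passed. Scaling to a common total without mitochondrial genes moved the median of all genes from 0.07 to -0.09 and the calls over all genes from 1818 higher and 1100 lower to 1395 higher and 1580 lower, while the 38 gave 1 higher and 17 lower. In the pathway lists, Ifngr2, a chain of the gamma receptor, rose (log2 difference 1.30, SE 0.26, adjusted p = 0.0039) and Jak2 fell (-0.64) among 10 receptor and signalling genes. Irf5 (2.28) and Irf8 (2.18), factors that macrophages express strongly, rose and Irf2 (-0.64) fell among 6 other Irf genes. Ikbke (1.75) rose among 12 sensing genes, and Ptpn6 (1.46) among 6 brakes. Other interferon-induced genes fell in 16 of 51, led by Tgtp2 (-2.91), Gbp9 (-2.46) and Ifi205 (-2.39). They rose in 5, led by Ubd, Slfn2 (2.01) and the chemokine gene Cxcl10 (1.49). Ubd went from 2.93, 3.79 and 3.17 FPKM to 179, 269 and 178, a log2 difference of 5.76 (SE 0.23, adjusted p = 1.4e-07), and so rose in both white depots.

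Set side by side, 10 of the 38 genes fell on the high-fat diet in both white depots. Another 18, Oas3 among them, passed as lower in inguinal and not in epididymal adipocytes. Only Gbp3 and Ifih1, 2 genes, passed as lower in epididymal and not in inguinal adipocytes. Zbp1 rose in epididymal and fell in inguinal adipocytes, and 7 passed in neither. Whether the diet differences themselves differed between depots was tested as an interaction, epididymal minus inguinal. It was positive for 9 of the 38 (8 of 37 without Oas3) and negative for 0, against 4.8% and 2.42% of all genes (7.22% in either direction). The 9 were 5 of 10 type I type genes (4 of 9 without Oas3; Ifit3, Mx1, Oas1a, Oas3 and Oasl1), 0 of 7 gamma type genes, 2 sensors (Dhx58 and Zbp1), Trim25 and Irf9. At an unadjusted p under 0.05, 1 of the 7 gamma type genes, Igtp, and 5 of the 10 type I type genes, Oas3 among them, passed. Over all genes, 3295 of 14959 did. The median interaction was 1.23 for type I type genes, 0.26 for gamma type genes and 0.07 for all genes. The type I type median holds Mx1, Mx2 and Oas3. Their epididymal group means were at most 0.587 FPKM on either diet, which left little room to fall there.

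The widest gap was that of Zbp1, at 3.06 (SE 0.46, adjusted p = 0.0046) on the log2 scale, since it rose by 1.42 in epididymal adipocytes and fell by 1.64 in inguinal adipocytes. Oas1a had an interaction of 2.55 (SE 0.44, adjusted p = 0.0081) from 0.86 and -1.69, and Oasl1 one of 2.64 (SE 0.59, adjusted p = 0.022) from 1.14 and -1.49. In these 3 the epididymal values were higher, and the inguinal values lower, on the high-fat diet in all libraries, except that Oasl1 and Oas1a did not pass in epididymal adipocytes alone. For Oas3 (2.39, with no test), Mx1 (1.93, SE 0.50, adjusted p = 0.038) and Dhx58 (1.76, SE 0.43, adjusted p = 0.033), epididymal diet groups overlapped while inguinal diet groups did not. Epididymal means of Mx1 were 0.587 FPKM on the normal and 0.378 on the high-fat diet, so that it, like Oas3, had little room to fall there. Trim25 (1.40, SE 0.25, adjusted p = 0.0086), Irf9 (1.32, SE 0.29, adjusted p = 0.02) and Ifit3 (1.18, SE 0.32, adjusted p = 0.049) had smaller gaps. The other 29 genes ran from -1.11 (Gbp4) to 1.28 (Mx2). Oas3 aside, Oas1a, Trim25 and Zbp1 passed whichever of the 12 libraries was left out. Without epididymal high-fat library 0 or 1 these 3 were all that passed, again with Oas3 set aside. With the inguinal normal-diet group reduced to library 1, the median interaction was 1.47 for type I type and 0.49 for gamma type genes, with Gbp4 at -2.16. Library 1 was picked after seeing the data. It held the highest value of 22 of the 38 genes and the lowest value of Gbp4 in its group, so these sizes were partly built in. Scalings moved the calls over all genes from 718 positive and 362 negative to 549 and 607 (common total without mitochondrial genes), with 9 positive and 0 negative of the 38 in that scaling. In the pathway lists, 3 of 6 other Irf genes (Irf5 3.48, Irf8 3.10, Irf4 1.88) and 4 of 12 sensing genes (led by Ikbke 3.40, Tlr9 2.43 and Samhd1 1.64) were positive. Of 51 other interferon-induced genes 7 were positive, led by Slfn2 (4.18), and the chemokine gene Cxcl9 (-1.42) was negative. Lymphocyte markers were positive in 6 of 15, macrophage markers in 3 of 12, and endothelial markers negative in 11 of 11.

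**Figure D3:**
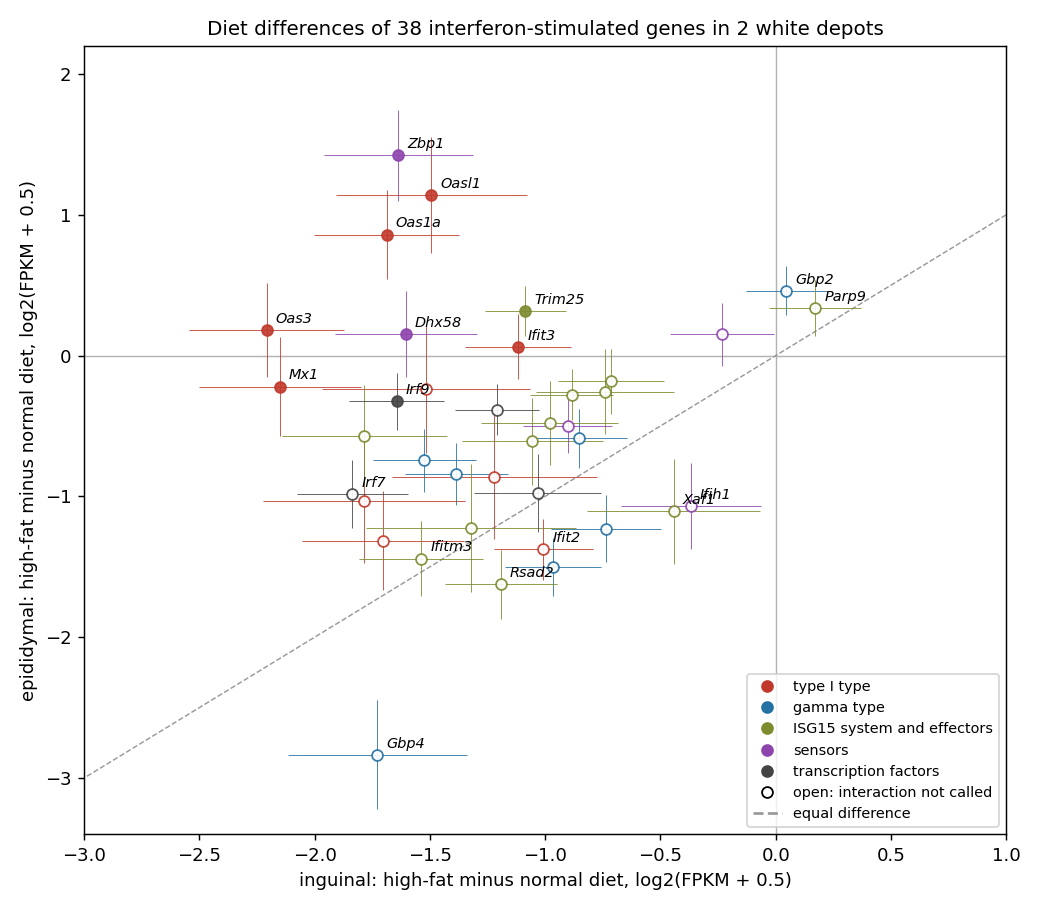
Each point is 1 of the 38 genes, with its high-fat minus normal difference in inguinal (x axis) and epididymal adipocytes (y axis) in log2(FPKM + 0.5) and bars of 1 SE of the limma fit; colour is class, filled points passed the interaction test, and the dashed line marks equal differences. The filled points, type I type genes, sensors, Trim25 and Irf9, lie above the line at the left. Oas3 is drawn filled, although it met the minimum level only through the inguinal normal-diet group and is given with no test. Gbp4 lies alone at the bottom with a difference of -2.84 in epididymal adipocytes.

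On the normal diet, epididymal adipocytes had lower levels than inguinal adipocytes. This comparison shares its libraries with the diet comparisons, so it is not independent of them. Of the 38 genes 17 were lower (16 of 37 without Oas3) and 0 higher, against 4.15% and 2.36% of all genes (6.51% in either direction). The depots did not overlap for 27 of the 38, Oas3 among them, against 19.1% of all genes. The calls took in 5 of 10 type I type genes (4 of 9 without Oas3), 3 of 7 gamma type genes, 4 of 12 effectors, 2 of 5 sensors and 3 of 4 transcription factors. The largest was Zbp1, at 2.37, 3.11 and 1.35 FPKM in epididymal and 13.2, 26.6 and 19.9 in inguinal libraries, a log2 difference of -2.87 (SE 0.32, adjusted p = 0.0009). Next came Usp18 (-2.22), from 2.41, 2.76 and 0.846 FPKM, and Mx1 (-2.21). Irf7 followed with -1.91 (SE 0.24, adjusted p = 0.0018), and Oasl1 with -1.81 (SE 0.41). In all of these every epididymal value lay under every inguinal value given above. Oas3 read 0.297, 0.427 and 0 FPKM in epididymal libraries, a log2 difference of -2.40, with no test. The remaining calls, by size, were Isg15 (-1.54), Igtp (-1.46), Oas1a (-1.30), Rtp4 (-1.28; 6.42, 8.66 and 3.996 FPKM in epididymal libraries), Irf9 (-1.21; 8.85, 10.4 and 9.03 FPKM), Dhx58 (-1.17; 2.49, 3.98 and 4.31 FPKM), Ifit3 (-1.12; 5.798, 7.02 and 6.05 FPKM), Irgm2 (-0.95; 10.1, 10.7 and 6.48 FPKM), Stat2 (-0.95), Irgm1 (-0.87) and Trim25 (-0.66; 9.23, 13.4 and 11.5 FPKM). Gbp2, Gbp3, Gbp4 and Gbp7 did not pass, at -0.64 to -0.24, nor did Ifitm3 (-0.33), Irf1 (-0.72), Ifit1 (-1.03) and Bst2 (-1.06). The other 13 ran from -1.58 (Mx2) to 0.19 (Ifih1).

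Lymphocyte markers were lower in epididymal than inguinal adipocytes in 14 of 15 on the normal diet. With the inguinal group reduced to library 1, the median log2 difference was -1.85 for type I type and -0.63 for gamma type genes. With all libraries these medians were -1.32 and -0.64. Library 1 was picked after seeing the data and held the highest value of 22 of the 38 genes, so lower epididymal values were partly built in. Fitting these 6 libraries alone with limma left 0 calls among the 38, of which 25 had an unadjusted p under 0.05 in that fit, against 29 in the fit of all 4 groups. Over all genes the fit of 6 libraries left 14 calls, against 974 in the fit of all 4 groups. In the latter, 3591 of all 14959 genes had an unadjusted p under 0.05. Without epididymal library 0 or 2, or inguinal library 2, 10, 8 and 11 of the 38 passed in the fit of all 4 groups. Of the 17, 8 held whichever library was left out, Oas3 among them. Quantile normalization moved the calls over all genes from 353 higher and 621 lower to 687 and 621, with 0 higher and 19 lower of the 38. Other interferon-induced genes were lower in 26 of 51, led by Ifit1bl1 (-2.37), Ciita (-2.26) and Gbp8 (-2.15), and none was higher. Irf8 (-2.24) and Irf4 (-1.75) were lower among 6 other Irf genes, Ptpn6 (-3.09) among 6 brakes, and 6 of 12 sensing genes, led by Ikbke (-2.13).

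On the high-fat diet 8 of the 38 genes passed between depots, most of them lower in epididymal adipocytes. Whether more passed on 1 diet than on the other depended on the fit: 8 against 17 on the normal diet here, 16 against 12 with array weights, and 15 against 0 with only the groups compared. These counts went with those over all genes: 1587 against 974 here, and 2993 against 14 with only the groups compared. The count over all genes with array weights is not given here. Oas1a and Trim25 were higher in epididymal adipocytes, and Ifit2, Gbp3, Gbp4, Gbp7, Isg15 and Irf7 lower. That makes 2 and 6 of the 38 against 7.08% and 3.53% of all genes, so the share higher was no larger than over all genes. The depots did not overlap for 18 of the 38, against 38.4% of all genes. Oas1a read 2.61, 4.03 and 2.85 FPKM in epididymal and 1.02, 1.19 and 0.878 in inguinal libraries, a log2 difference of 1.24 (SE 0.31, adjusted p = 0.025). Trim25 read 14.7, 15.9 and 12.1 FPKM against 7.84, 8.42 and 8.55, a log2 difference of 0.74 (SE 0.18, adjusted p = 0.019). Gbp4 had the largest difference, with 0.4598, 1.11 and 0.816 FPKM in epididymal and 4.41, 3.15 and 2.83 in inguinal libraries, -1.62 (SE 0.39, adjusted p = 0.019). Each of the 3 had depots that did not overlap. Gbp3 read 4.22, 4.49 and 4.05 FPKM against 7.45, 10.7 and 12.1 (-1.13, SE 0.24, adjusted p = 0.011). Gbp7 read 2.68, 2.92 and 3.11 FPKM against 4.51, 5.91 and 7.997 (-0.93, SE 0.21, adjusted p = 0.013). Ifit2 read 1.16, 1.63 and 1.54 FPKM against 2.82, 2.77 and 3.76 (-0.90, SE 0.22, adjusted p = 0.02). These 3 were also apart in all libraries, while Gbp2 overlapped. Isg15 read 3.69, 3.88 and 5.33 FPKM against 7.73, 11.9 and 9.64 (-1.09, SE 0.31, adjusted p = 0.041). Irf7 read 5.94, 6.42 and 7.85 FPKM against 11.1, 16.4 and 16.6 (-1.06, SE 0.24, adjusted p = 0.015). With the replicate number as a block in limma, Rsad2 (adjusted p = 0.024) and Irgm2 (adjusted p = 0.042) also passed as lower. What same-numbered libraries share is not stated. The 30 genes that did not pass without the block ran from -1.17 (Ifi44) to 0.83 (Oasl1). These 8 calls were thin: any 1 library left out took the number to between 1 and 4, with 1 without epididymal library 0 or inguinal library 2, 2 without epididymal library 1, 3 without inguinal library 1, and 4 without epididymal library 2 or inguinal library 0. Scaling to a common total without mitochondrial genes gave 1 higher and 11 lower of the 38, and 658 higher and 911 lower of all genes in place of 1059 and 528. Beside them, 10 of 12 macrophage markers were higher and 11 of 11 endothelial markers lower in epididymal adipocytes. Of the pathway lists, Il10rb (0.96), Irf5 (2.12), Ptpn6 (1.63), Slfn2 (2.09) and Ubd (1.05) were higher, and 6 of 51 other interferon-induced genes lower, among them Gbp9 (-1.37) and Ifi47 (-1.34).

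Type I and gamma type classes were compared as the median of each class's centred log2 levels in each library, a description with no test. In the inguinal normal-diet libraries the type I type stood at 0.74, 1.73 and 0.90 and the gamma type at 0.73, 0.81 and 1.12 above the mean of the white libraries. Library 1, with the fewest lymphocyte markers of the 3 (110 FPKM), had the highest type I type level, and library 2, with the most (1362 FPKM), the highest gamma type level. On this scale library 0 (812 FPKM) had the lowest level of both classes among the 3. How the class levels relate to lymphocytes was not tested. In the epididymal high-fat libraries the type I type stood at -0.71, -0.20 and -0.81 and the gamma type lower, at -0.999, -0.731 and -0.997. The epididymal normal-diet libraries had -0.22, 0.17 and -0.47 for the type I type and -0.14, 0.15 and 0.30 for the gamma type. Inguinal high-fat libraries had -0.65, -0.39 and -0.05 against -0.29, -0.17 and 0.10. The type I minus gamma difference was 0.34 ± 0.17 (SD, n = 3) in the epididymal high-fat group, positive in 3 of 3 libraries, and -0.25 ± 0.11 in the inguinal high-fat group, negative in 3 of 3. Each gene was centred on the same 12 white libraries, so some groups must lie above 0 and others below. The signs compare groups and do not show which class was higher within a group. In the normal-diet groups it was -0.27 ± 0.43 in epididymal and 0.24 ± 0.60 in inguinal adipocytes, each smaller than its spread, and the inguinal value was -0.05 without library 1. On a common total without mitochondrial genes the inguinal normal-diet libraries stood at 1.00, 1.68 and 0.98 for the type I type and 1.02, 0.75 and 1.20 for the gamma type.

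**Figure D4:**
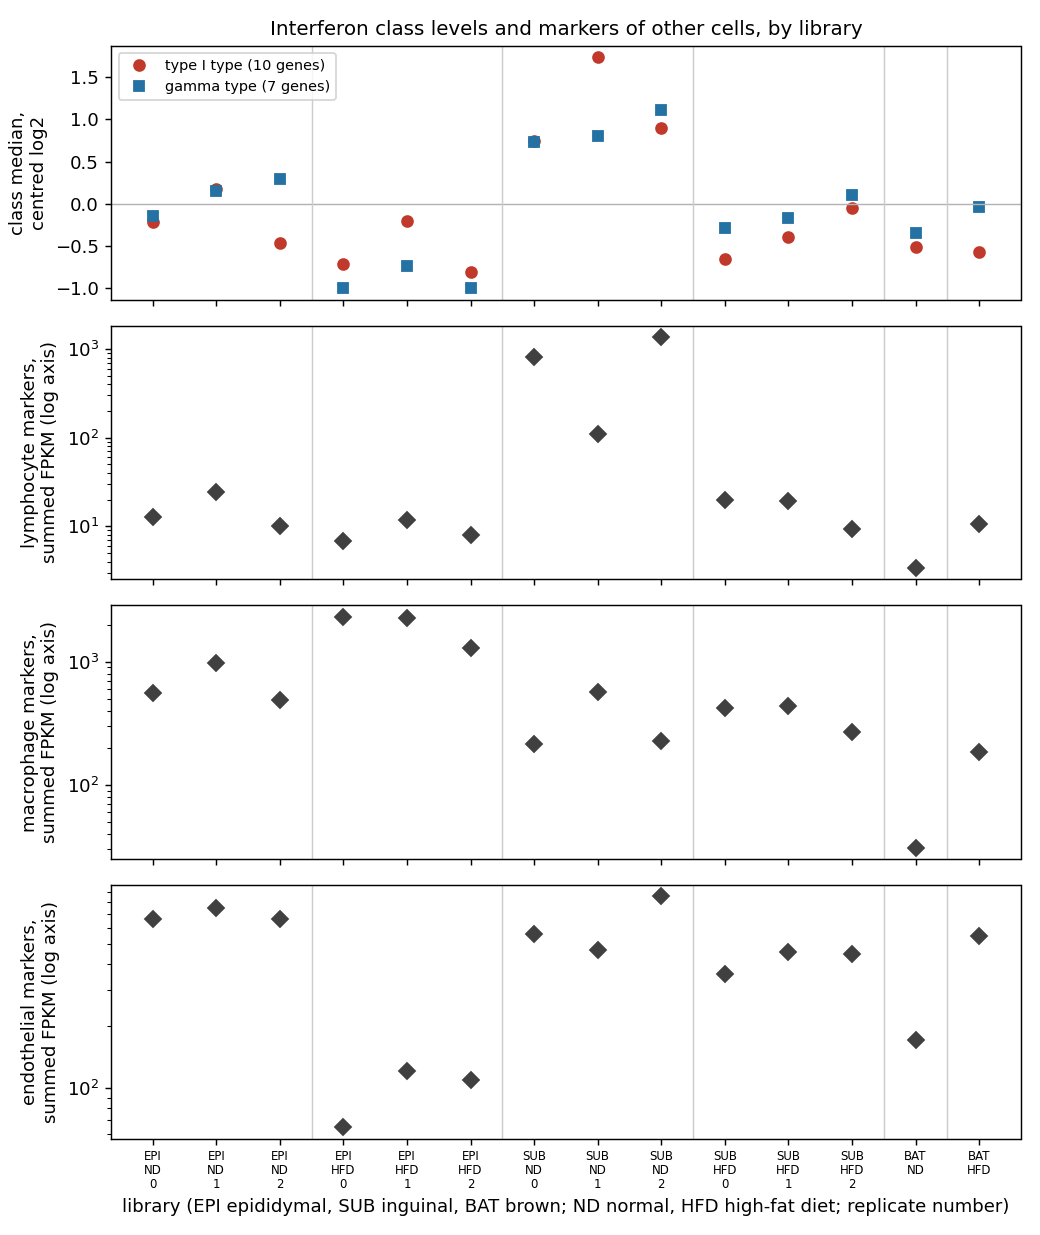
The top panel plots the class median of centred log2(FPKM + 0.5) for type I type (circles, 10 genes) and gamma type (squares, 7 genes) in each of the 14 libraries, and the lower panels the summed FPKM of lymphocyte, macrophage and endothelial markers on log axes. The inguinal normal-diet libraries are highest in both classes and in lymphocyte markers. Among these 3, the type I type is highest (1.73) in library 1, which has the lowest lymphocyte sum (110 FPKM), and any relation was not tested. The epididymal high-fat libraries have the lowest gamma type levels (-0.999 to -0.731) and endothelial sums (64.6 to 122 FPKM).

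Brown adipocytes had 1 library per diet, so their differences have no replicate check and no test. Of the 38 genes 34 had a mean of at least 1 FPKM, and at a limit of 2-fold 1 was higher and 1 lower on the high-fat diet, where 11.1% of all genes were higher and 6.49% lower. Irf1 went from 25.4 to 51.8 FPKM, 2.02-fold on the log2(FPKM + 0.5) scale, and Irf7 from 21.98 to 10.5 FPKM, 0.491-fold. Neither stood clear of the limit: with a pseudocount of 1 no gene passed it, and on a common total without mitochondrial genes 4 were higher and 0 lower, so that Irf7 no longer passed. Just inside the limit lay Gbp4, from 2.52 to 5.43 FPKM, and Ifit2, from 1.13 to 2.696 FPKM, both 1.96-fold. Zbp1 read 8.79 and 4.45 FPKM, Igtp 10.2 and 6.12, Isg15 10.97 and 9.01, and Ifit1 4.41 and 2.83. Ifitm3 read 75.4 and 94.2 FPKM, Bst2 31.1 and 38.8, Gbp2 18 and 26.7, and Irgm1 10.4 and 10.5. The median log2 ratio of the 34 was -0.20, and by class 0.40 for the 7 gamma type genes and -0.26 for the 6 type I type genes with a mean of at least 1 FPKM. Mx1 read 0.965 and 0.506 FPKM, Oas1a 1.38 and 1.24, and Stat2 4.81 and 4.53. The 2 brown libraries also differed in markers of other cells, with lymphocyte markers at 3.40 and 10.7 FPKM, macrophage markers at 31.1 and 185 FPKM and endothelial markers at 171 and 549 FPKM on the normal and the high-fat diet.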

How the data were processed

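Poly(A) RNA of adipocytes was sequenced on 14 libraries, 12 of white fat in 4 groups of 3 and 2 of brown fat. The authors deposited 1 FPKM value per Ensembl gene and library, made with TopHat2 2.0.9 and Cuffdiff 2.1.1 on mm10, per the submitters' processing notes. The annotation, the strand setting and Cuffdiff's normalization are not given in the sources used here. Read depth is unknown, so no counting interval is given.

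Gene identifiers were matched to symbols for 36638 of 38553. Genes with at least 0.5 FPKM in at least 3 white libraries (14959) were tested as log2(FPKM + 0.5) with limma 3.58.1 in R 4.3.3, with 4 group means, 8 residual degrees of freedom and a mean-variance trend. Tests were two-sided, and a call is a Benjamini-Hochberg adjusted p under 0.05 over all genes tested. The method was tested on simulated data. P-values measure the spread between libraries of pooled mice. The members and gene lists were chosen with earlier results of these data known.

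Members called in a comparison are given library by library, and 12 reference members always with their group values. Up to 3 genes each way are named per pathway list. Some pathway results are not reported here. Whether same-numbered libraries share mice or a batch is not stated in the labels. Their deviations correlated across genes at 0.184, 0.111 and 0.146 between the high-fat depots. Between the epididymal diet groups the values were 0.18, 0.082 and 0.162. Different-numbered libraries were not compared, so these correlations cannot decide whether libraries were paired. Alternatives were another pseudocount, filter, scaling, weighting, fit of 2 groups, the replicate block and leaving out each library.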

Additional observations from a re-analysis of the deposited data

Results flagged for a closer look

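The results for 9 genes differed between the white depots by the interaction test of limma, the diet difference in epididymal minus that in inguinal adipocytes on the log2 scale. The values were 3.06 for Zbp1, 2.64 for Oasl1, 2.55 for Oas1a, 2.39 for Oas3, 1.93 for Mx1, 1.76 for Dhx58, 1.40 for Trim25, 1.32 for Irf9 and 1.18 for Ifit3. All 9 share the inguinal normal-diet libraries, in which lymphocyte markers summed to 812, 110 and 1362 FPKM, and the part of those cells in the differences was not tested. Oas3 met the minimum level only through those libraries, so its value is no independent support. Mx1 had epididymal group means of at most 0.587 FPKM, which left it little room to fall there. No group had enough libraries for a test of single outlying libraries.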

How the results depend on the processing

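Counts of the 38 genes called by limma are compared here with those in the report, and the cause of each move was not tested. Without a filter on low values, 5 genes passed the interaction, 11 the depot comparison on the normal diet, and 1 was higher in epididymal adipocytes on the high-fat diet. On a common total without mitochondrial genes the high-fat depot comparison gave 1 higher and 11 lower. Fitting only the groups compared gave 12 lower for inguinal diet, 0 for depot on the normal diet (25 at an unadjusted p under 0.05) and 15 for depot on the high-fat diet, 13 of them lower. Over all genes these fits called 713, 14 and 2993. Array weights gave 24 for epididymal diet (2 higher, 22 lower) and 16 for depot on the high-fat diet (14 lower). The same weights gave 23 for inguinal diet, with 6 of the 29 calls lost, 12 for depot on the normal diet, with 6 of the 17 lost, and 8 for the interaction. With the replicate block, 19 passed for epididymal diet (4 higher), 32 for inguinal diet, 9 for the interaction, 22 for depot on the normal diet and 10 for depot on the high-fat diet, and no call was lost. What the replicate numbers share is not stated, and the correlations of deviations ran from 0.007 to 0.272, both between the inguinal diet groups. With the inguinal normal-diet group reduced to library 1, picked after seeing the data, the interaction of Gbp4 was -2.16. Gbp4 was lowest of its group in that library, so this size was partly built in. Leaving out 1 library gave 8 to 13 calls for epididymal diet (1 to 2 higher, 6 to 12 lower), 21 to 31 for inguinal diet, 4 to 9 for the interaction, 8 to 20 for depot on the normal diet and 1 to 4 for depot on the high-fat diet (0 to 1 higher, 1 to 4 lower). The type I minus gamma level ranged from -0.43 to -0.10 in the epididymal normal-diet group, 0.27 to 0.43 in the epididymal high-fat group, -0.31 to -0.22 in the inguinal high-fat group and -0.0453 to 0.480 in the inguinal normal-diet group, where it turned negative without library 1. In brown fat, a pseudocount of 0.1 gave 4 genes past 2-fold (3 higher), a pseudocount of 1 gave 0 in either direction, and a common total gave 4 higher and 0 lower. Read depth is unknown, so the precision of genes near 0.5 FPKM, such as Mx1, Mx2 and Oas3, cannot be stated.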
